A study of Mus musculus with 2 samples.

Results

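Portal-zone sinusoidal endothelial cells of the healthy mouse liver were examined here, the cells that line the sinusoids close to the portal vein and hepatic artery. They were chosen by their own gene expression, through counts of unique molecular identifiers (UMIs), each of which stands for 1 captured RNA molecule. Of the 6297 cells of the healthy library, 5580 had at least 1000 UMIs and at most 30% of them from mitochondrial genes. A sinusoidal cell was then a cell with at least 5 UMIs of Clec4g, Stab2, Oit3 and Fcgr2b together, more than 3 times its UMIs of the epithelial genes Epcam, Krt7, Krt19 and Msln, and no UMI of Vwf, a gene of large-vessel endothelium, and 3055 cells passed. A portal-zone cell further had at least 2 UMIs of Efnb2, Dll4 and Ltbp4 together and at most 1 UMI of Wnt2, Kit and Thbd together. This left 880 cells, of 14757 in both libraries of the series.

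The series profiled liver cells of Col1a2CreER:Rosa26tdTomato mice by droplet sequencing (10x Genomics, 3' end version 2 chemistry), with 1 healthy library and 1 library made after injury with CCl4, a toxin broken down in hepatocytes. In these mice an inducible Cre under the Col1a2 promoter, which is active in mesenchymal cells, can switch on a red fluorescent protein, and both groups carried these alleles. The liver was dissociated by perfusion with pronase and collagenase, a Nycodenz gradient purified the cells, and the study's methods add a magnetic depletion of CD45-positive cells. Per the methods the background was C57BL/6, mice of both sexes entered the study at an age of 8 to 10 weeks, and the injured ones received CCl4 in corn oil by intraperitoneal injection, 2 times a week over 12 weeks. The number of mice in each library is not given in the sources used here. All comparisons are between cells of 1 library, which are not replicates, so no p-value was computed, and the intervals in brackets are 95% intervals that cover counting error only.

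Sinusoidal endothelium is thin, perforated and without a continuous basement membrane, and it clears waste molecules from blood through scavenger receptors. Blood enters each lobule at the portal side and leaves through the central vein, and endothelial cells differ along this path. At the central side they secrete Wnt ligands and R-spondin 3, which maintain the gene programme of the hepatocytes around the central vein, whereas the portal side is known for Notch ligands and ephrin-B2.

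The rule rests on 3 genes of the portal side: Efnb2 encodes ephrin-B2, a ligand of Eph receptors, Dll4 encodes a Notch ligand, and Ltbp4 encodes a protein that binds latent TGF-beta and elastic fibres. Their start-proximal sequences are shown because every cell described here was chosen through these genes, together with that of Efnb1, the ephrin-B gene that the rule did not use. Each is the 250 bases before the RefSeq start of transcription (build GRCm38.p6), read 5' to 3' on the strand of the gene: chr8:8661243-8661492 on the minus strand for Efnb2, chr2:119325534-119325783 on the plus strand for Dll4, chr7:27337613-27337862 on the minus strand for the first of 3 Ltbp4 entries, and chrX:99135811-99136060 on the plus strand for Efnb1. Capitals mark GGAA or its reverse complement in the first 3 genes, and in Efnb1 the longer word TGGGAA, which holds GGAA within it and is the core word of RBPJ, the DNA-binding protein of Notch signalling.
Efnb2: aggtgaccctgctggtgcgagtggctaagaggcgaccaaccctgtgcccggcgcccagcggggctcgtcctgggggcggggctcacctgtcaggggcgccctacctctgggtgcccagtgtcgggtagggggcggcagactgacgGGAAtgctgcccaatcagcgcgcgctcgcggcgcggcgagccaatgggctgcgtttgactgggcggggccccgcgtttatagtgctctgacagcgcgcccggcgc
Dll4: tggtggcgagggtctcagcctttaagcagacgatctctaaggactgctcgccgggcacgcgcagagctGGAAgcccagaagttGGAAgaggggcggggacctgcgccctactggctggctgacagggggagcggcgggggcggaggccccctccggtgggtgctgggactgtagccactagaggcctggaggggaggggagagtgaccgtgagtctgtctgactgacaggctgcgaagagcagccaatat
Ltbp4: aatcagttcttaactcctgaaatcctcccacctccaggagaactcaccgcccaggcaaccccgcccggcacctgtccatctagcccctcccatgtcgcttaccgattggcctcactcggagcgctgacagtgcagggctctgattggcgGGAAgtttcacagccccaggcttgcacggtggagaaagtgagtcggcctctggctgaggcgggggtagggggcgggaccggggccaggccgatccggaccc
Efnb1: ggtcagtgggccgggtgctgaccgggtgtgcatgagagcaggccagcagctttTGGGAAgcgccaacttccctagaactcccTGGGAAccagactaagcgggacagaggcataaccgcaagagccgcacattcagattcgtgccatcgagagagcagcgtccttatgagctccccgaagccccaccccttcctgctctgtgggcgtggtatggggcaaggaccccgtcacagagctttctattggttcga
Both strands were searched. TGGGAA was in none of the windows of Efnb2, Dll4 and the 3 Ltbp4 entries and was in the Efnb1 window at positions -197 and -168 from the start. For scale, 7094 of 32851 windows of this length (21.6%) hold TGGGAA and 30698 (93.4%) hold GGAA. The letters are a description of the windows and were not tied to any value below.

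The 880 portal-zone cells made up 28.8% [27.2, 30.4] of the 3055 sinusoidal cells. A further 1394 cells (45.6% [43.9, 47.4]) had at least 2 UMIs of both gene trios and are called mixed cells here, 621 (20.3% [18.9, 21.8]) passed for the central trio alone and are called central-zone cells, and 160 (5.24% [4.47, 6.09]) had at most 1 UMI of each. The portal-zone cells held 5034711 UMIs in all, and the median cell had 5613 UMIs, 2561 genes and 4.35% mitochondrial UMIs. The mixed cells were deeper (median 6830 UMIs), the central-zone cells similar (5361), and the cells with neither trio much shallower (1615 UMIs, 12.7% mitochondrial). Depth thus differed between the groups, whose gates count raw UMIs. Only 1 of the 880 barcodes was also in the CCl4 library, among 10 barcodes that the libraries shared.

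**Figure D1:**
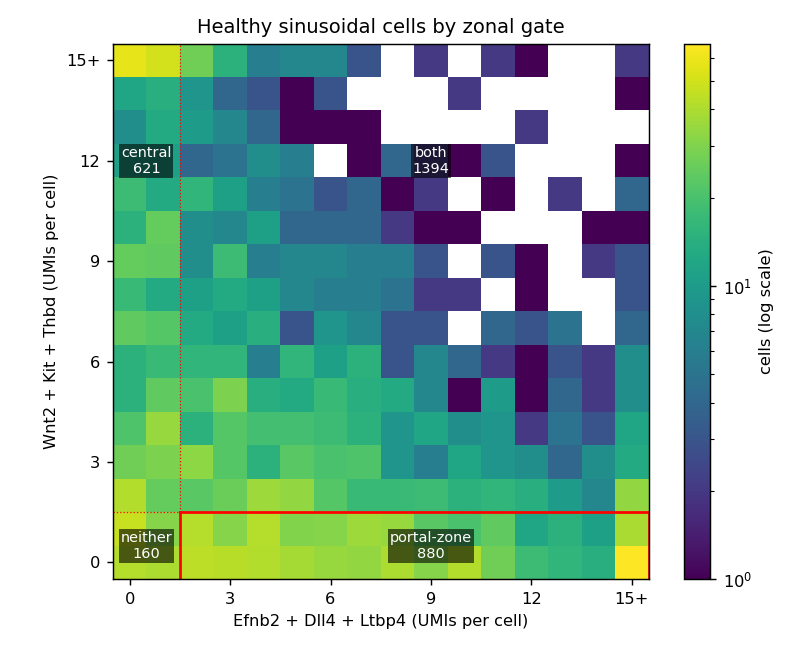
Number of healthy sinusoidal cells (colour, log scale) at each pair of UMI sums, with the Efnb2, Dll4 and Ltbp4 sum on the x axis, the Wnt2, Kit and Thbd sum on the y axis, and sums of 15 or more joined. The red box holds the 880 portal-zone cells, and cells lie on both sides of its edges without a gap.

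The genes of the rule are described and not tested. Ltbp4 carried most of the choice: 858 of the 880 cells (97.5%) had a Ltbp4 UMI, 551 (62.6%) a Dll4 UMI and 464 (52.7%) an Efnb2 UMI. All 3 were present in 306 cells (34.8%), and Ltbp4 alone in 186 (21.1%). In UMIs per 1000000 of the summed cells (CPM), Ltbp4 was at 1053 [1025, 1082] in portal-zone, 701 in mixed, 53.8 in central-zone and 1083 in large-vessel cells, Dll4 at 215 [202, 228], 144, 22.1 and 113, and Efnb2 at 173 [162, 185], 104, 18.2 and 125. Large-vessel endothelial cells were 121 healthy cells with at least 3 Vwf UMIs and few sinusoidal UMIs. Of the central trio, the Wnt ligand Wnt2 was at 31.6 CPM in portal-zone and 945 in central-zone cells, the receptor Kit at 28.0 and 563, and thrombomodulin (Thbd) at 18.1 and 187.

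Just inside the portal threshold, 86 cells with a sum of 2 had Msr1 at 225 CPM, and just outside it 70 cells with a sum of 1 had 142 CPM. Ntn4 was at 463 and 227 CPM, but Adam23 (910 and 1250) and Meis1 (83.5 and 123) ran the other way. The summed list of portal-side genes used below was at 3038 and 2830 CPM. Here and at the central threshold, the 7 cells with few sinusoidal UMIs described below were left out. At the central threshold, 389 cells with a sum of 1 had Msr1 at 327 CPM, and 289 cells with a sum of 2 had 298 CPM.

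The labelled cell type was compared with genes that the rule did not use. Pecam1 and Cdh5, adhesion molecules of endothelial junctions, were at 630 [608, 652] and 867 [841, 893] CPM, against 603 and 860 in the other sinusoidal cells and 7.12 and 6.405 in 1507 cholangiocytes of the same library. Gata4 and Maf, transcription factors of sinusoidal endothelium, were at 209 [197, 222] and 1877 [1840, 1916] CPM, against 214 and 2057 in the other sinusoidal cells. These endothelial and sinusoidal genes were thus present in the summed cells at levels close to those of the other sinusoidal cells. Further such genes outside the rule were lower than in the other sinusoidal cells by less than 1.5-fold, among them Stab1, Lyve1, Mrc1, Kdr and Eng, with values given below.

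For 3 of the 880 cells the values went against the label. They were the deepest cells, with 95481, 87176 and 56431 UMIs, and their 4 sinusoidal genes made up only 0.00838%, 0.00803% and 0.00886% of these UMIs, whereas the median of the 880 was 0.801% and the next lowest cell had 0.0948%. Pecam1 had 0, 1 and 0 UMIs in them and Cdh5 1, 1 and 2. They held 67, 92 and 55 UMIs of Sox2, a transcription factor of neural and stem cells, which were all 214 Sox2 UMIs of the 880 cells, and 88, 121 and 74 UMIs of the neuronal tubulin Tubb3. Mitochondrial genes gave 0.0848%, 0.0872% and 0.0780% of their UMIs. They held 4.75% of the UMIs of the 880 cells, so counts over genes are given below with and without the 7 sinusoidal cells under 0.05% sinusoidal UMIs, which are these 3 and 4 of the cells with neither trio. This limit was set after seeing the data.

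**Figure D2:**
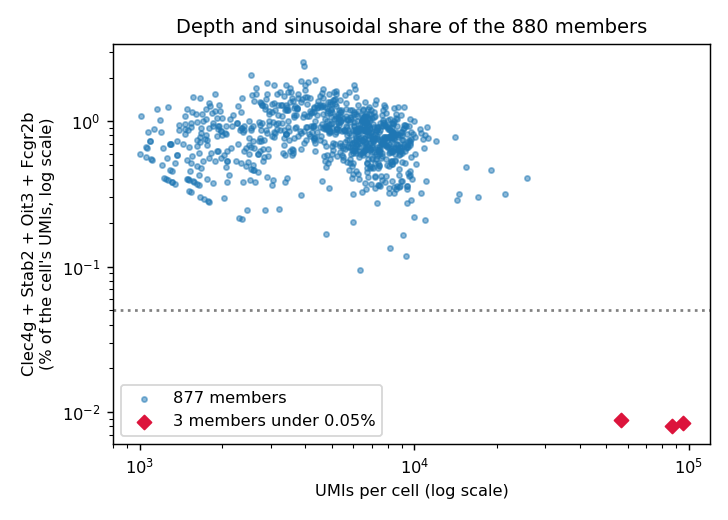
UMIs per cell (x axis, log scale) against the share of UMIs from Clec4g, Stab2, Oit3 and Fcgr2b (y axis, log scale) in the 880 portal-zone cells, with a dotted line at 0.05%. The 3 cells below the line are the deepest and lie far below the next cell at 0.0948%, at 0.00803% to 0.00886%.

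Portal-zone cells were then compared with the other 2175 sinusoidal cells. A gene was counted as higher or lower when its CPM differed at least 1.5-fold and the interval of the ratio left out 1, among genes with at least 20 CPM in the higher group and without the 15 genes of the rule. Of 7013 genes, 134 were higher (1.91%) and 154 lower (2.2%), with a median log2 ratio of -0.03. Without the 7 cells, 69 of 7015 genes were higher (0.984%) and 105 lower (1.5%), with a median of 0.01. Genes called higher in both numbered 55 and genes called lower in both 103, while 17 ribosomal protein genes were called higher with all cells and 0 without the 7. The highest ratio with all cells was that of Sox2 (572-fold, 214 UMIs against 1), and 13 of the 15 highest owed 77.6% to 100% of their portal-zone UMIs to 3 cells. The genes described next are therefore the 15 highest and 15 lowest without the 7 cells. Of the highest, 2 were among the 15 with all cells (Cnmd and Esm1), and of the lowest 9.

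Among the 15 highest, a first set comprised receptors and secreted factors of vessels. Ednrb, the endothelin B receptor, was at 59.6 CPM [53.0, 66.7] in portal-zone and 15.9 [13.8, 18.2] in other sinusoidal cells (3.89-fold [3.26, 4.66] without the 7 cells). Adgrg6, an adhesion G protein-coupled receptor, was at 63.4 [56.6, 70.7] and 14.3 [12.3, 16.4] CPM (4.59-fold [3.82, 5.52]), and Vegfc, a growth factor of lymphatic and blood vessels, at 31.2 [26.5, 36.5] and 8.99 [7.46, 10.7] CPM (3.60-fold [2.83, 4.61]). Among the portal-zone, mixed, central-zone and large-vessel cells, all 3 were highest in large-vessel cells, at 310, 428 and 262 CPM, and lowest in central-zone cells, at 6.58, 2.09 and 2.09 CPM. Esm1, an endothelial proteoglycan induced by VEGF, and Cnmd, which encodes chondromodulin, an inhibitor of vessel growth, were 5.03-fold [3.81, 6.70] and 5.13-fold [3.98, 6.63] higher, and neither had a UMI in the large-vessel cells. Their UMIs came from only 52 and 57 of the 880 cells, with 24.8% and 29.3% of them in 3 cells. Gucy1b1, a subunit of the receptor for nitric oxide, was 4.59-fold [3.47, 6.10] higher. The rule also left out cells by their Vwf UMIs. With those cells kept (991 portal-zone cells), the ratio of Ednrb was 1.92 (3.75 with all 880 cells of the rule), that of Adgrg6 2.34 (4.44) and that of Slc45a4 3.34 (5.35).

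Msr1 was the gene of this set found in most cells. It encodes macrophage scavenger receptor 1 and was at 389 CPM [371, 406] in portal-zone and 130 [124, 136] in other sinusoidal cells, a ratio of 3.14 [2.94, 3.35] without the 7 cells. Its UMIs came from 578 of the 880 cells, whereas those of Ednrb came from 62 cells, with 36.0% of them in 3 cells. Cd34, a sialomucin of blood stem cells and vessels, was 2.90-fold [2.41, 3.50] higher, and Mecom, a zinc-finger transcription factor, 2.88-fold [2.55, 3.26]. Slc45a4 had the highest ratio (5.79 [4.06, 8.34]), at 19.9 CPM with 100 UMIs. The others, with ratios of 2.47 to 2.92, were Galnt15, Plac8, Gprc5c, Htra1, which encodes a secreted serine protease, and Ptpre, which encodes a protein tyrosine phosphatase. Large-vessel cells had more of Cd34 (228 against 46.9 CPM in portal-zone cells), Plac8 (416 against 37.9), Htra1 (198 against 54.4) and Galnt15 (108 against 57.2). The same held for Gucy1b1 (53.3 against 27.2) and Mecom (281 against 106). Gprc5c and Slc45a4 were at 41.3 and 21.3 CPM there, with intervals of the ratio that hold 1. Msr1 and Ptpre were lower there, at 86.6 and 44.0 CPM.

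The 15 lowest were led by Rspo3, the R-spondin that amplifies Wnt signals, with 9 UMIs in portal-zone cells (1.79 CPM [0.817, 3.39]) and 1283 in the others (95.3 CPM [90.2, 101]), a ratio of 0.02 [0.01, 0.03]. Cdh13, a cadherin anchored by lipid, was at 9.93 CPM [7.37, 13.1] and 124 [118, 130], and Lhx6, a transcription factor, had 5 and 375 UMIs. Tgfbi, a matrix protein induced by TGF-beta, had 11 and 306 UMIs, Ackr3, a scavenger receptor of the chemokine CXCL12, 18 and 445, and Sema3d, a guidance factor, 14 and 307. Jup (plakoglobin), the fringe enzyme gene Lfng, the monoamine transporter gene Slc18a2, Plppr5, Ifitm10 and Lgals1 (galectin 1) completed those spread over many cells. For Ccl21a and Ccl5 the other cells' UMIs came from few cells: 279 of 314 Ccl21a UMIs were in 1 cell, and 293 of 295 Ccl5 UMIs in 3. The last, C1qb, is a complement gene of macrophages. With the cells that the Vwf limit left out, the ratios of Rspo3, Cdh13 and Ackr3 were 0.0408, 0.141 and 0.211, against 0.0187, 0.0804 and 0.108 with all 880 cells of the rule.

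The zonal genes outside the rule were followed across the groups with a portal-side and a central-side list. Both lists were chosen with earlier results of these data known, so their counts are descriptions. Msr1 of the first and Rspo3, Cdh13 and Lhx6 of the second are also among the genes ranked above. The list of genes known from the portal side had 10 members, with ligands and receptors such as the axon guidance factor Ntn4 and the Notch ligand Jag1 among them. Of these 10, 4 were higher in portal-zone than in other sinusoidal cells and 0 lower, beside 1.91% and 2.2% of all genes, and their median log2 ratio was 0.44. The 4 were Msr1, Ntn4 (617 CPM [595, 639] against 287 [278, 296]), Efnb1 (550 [529, 570] against 279 [270, 288]) and Jag1 (39.9 [34.6, 45.8] against 23.6 [21.0, 26.3]). Against the central-zone cells alone, 8 of 10 were higher, beside 262 of all 7113 genes (3.68%), or 207 of 7121 (2.91%) without the 7 cells. The mixed cells lay between: Msr1 was at 389, 168 [160, 176] and 20.03 [15.5, 25.4] CPM in portal-zone, mixed and central-zone cells, and Ntn4 at 617, 349 [337, 361] and 122 [111, 135]. Intervals of portal-zone and mixed cells were apart, with portal-zone higher, for 7 of 10 genes and overlapped or were reversed for Btnl9, Chst2 and Il1a, while mixed cells were above central-zone cells for all 10 with intervals apart. The summed list was at 3790, 2762 and 1577 CPM. Adam23, an integrin-binding membrane protein, was its most abundant member at 1091 CPM [1063, 1120] against 817 in the others and 5.33 in large-vessel cells.

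Genes known from the central side went the other way. Of 10 listed, 8 passed the level filter and 7 of these were lower, with a median log2 ratio of -1.44, and against central-zone cells all 10 were lower, beside 294 of all genes (4.13%), or 245 (3.44%) without the 7 cells. The Wnt ligand Wnt9b had 5 UMIs in portal-zone and 239 in other sinusoidal cells. Ptgs1, the prostaglandin synthase also called cyclooxygenase 1, was at 189 CPM [177, 202] against 412 [401, 423], and Plpp1, a lipid phosphatase, at 782 [757, 806] against 1520 [1500, 1541]. The mixed cells were between again: the summed list was at 1114, 2128 and 3770 CPM, and intervals of neighbouring groups were apart for 9 of 10 genes, all but Amigo2. A ratio against all other cells therefore averages over the mixed and the central-zone cells.

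**Figure D3:**
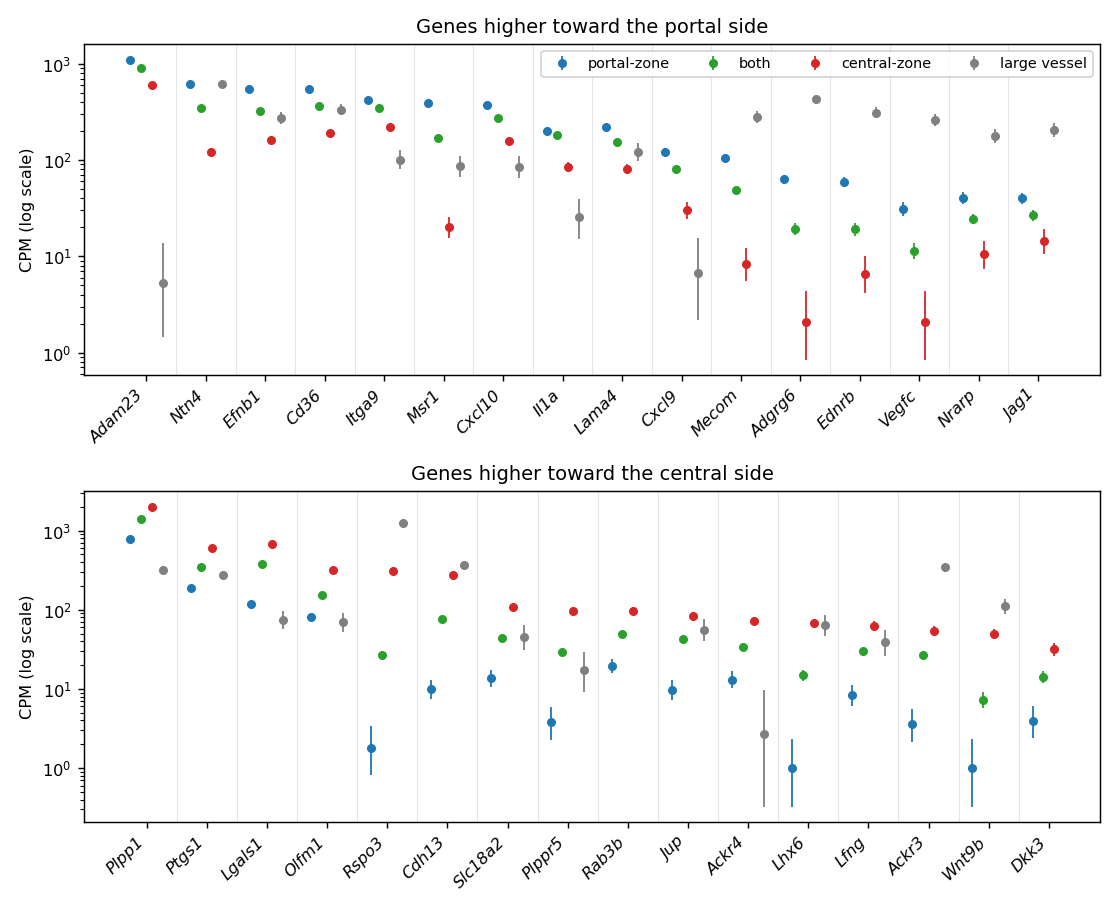
Level of 32 genes outside the rule (y axis, CPM, log scale) in portal-zone, mixed (labelled both), central-zone and large-vessel cells of the healthy library, with 95% Poisson intervals as bars and no point where the count was 0. The 32 genes are a selection, and mixed cells were gated on both trios. For these 32 genes the mixed cells lie between the portal-zone and the central-zone cells, for example Msr1 at 389, 168 and 20.03 CPM and Cdh13 at 9.93, 75.4 and 274. Not drawn are Btnl9 and Chst2, whose portal-zone and mixed intervals overlapped or were reversed, Amigo2, whose intervals overlapped, and Lyve1, which was highest in mixed cells.

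The share of cells with a UMI was compared after each cell was thinned to 3000 UMIs, which left out 205 shallower portal-zone cells. Msr1 was then found in 58.4% [54.5, 62.1] of portal-zone, 29.8% [27.3, 32.4] of mixed and 5.41% [3.58, 7.80] of central-zone cells, against 0.332% [0.107, 0.776] of the cholangiocytes, whose median depth of 12117 UMIs was above the 5613 of portal-zone cells before thinning. Without thinning the shares were 65.7%, 42.5%, 7.57% and 1.19%. Adgrg6 was in 12.6% [10.2, 15.4] of portal-zone and 0.461% [0.0669, 1.55] of central-zone cells, but also in 10.8% [9.27, 12.5] of the cholangiocytes, so no background can be read from that cell type for it. Ednrb was in 5.71% [4.08, 7.74] of portal-zone, 0.450% of central-zone and 0.244% [0.0609, 0.650] of cholangiocyte cells. Rspo3, at 0.407% [0.0758, 1.24] of portal-zone cells, was close to the share in the cholangiocytes (0.379% [0.134, 0.843]), against 20.9% [17.4, 24.7] of central-zone cells. The cholangiocyte group was not pure: its summed mesothelial list had a median of 6.74 and a 90th percentile of 85.7 UMIs per 10000, and its stellate list 0.832 and 59.1. Its shares are therefore not a measure of free RNA alone.

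Notch signalling passes between neighbouring cells, from ligands such as Dll4 and Jag1 to Notch receptors, and fringe enzymes modify the receptors. For this list and those that follow, set against the other sinusoidal cells of the healthy library, 1.91% of all genes were higher and 2.2% lower. Without the 7 cells these shares were 0.984% and 1.5%. Of 10 measured Notch genes besides Dll4, 2 were higher and 1 lower. The higher ones were Jag1 (1.69-fold [1.41, 2.03]) and Nrarp, a Notch target that feeds back on the pathway (40.3 CPM [35.0, 46.3] against 20.3 [18.0, 22.8], 1.99-fold [1.65, 2.39]). The lower one was Lfng, a fringe enzyme (8.34 CPM [6.01, 11.3] against 37.3 [34.1, 40.7], and 62.2 in central-zone cells). The target Hes1 was at 374 and 284 CPM (1.32 [1.25, 1.39]), and the receptors Notch1 and Notch4 had ratios of 1.08 [1.02, 1.13] and 1.05 [0.91, 1.22]. Of 4 measured genes of the Eph and ephrin family, Efnb1 was higher, and the receptor gene Ephb4, known from veins, was at 233 CPM [220, 247] against 266 [257, 275].

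A list of genes known from arteries had 3 of 8 measured members higher (Jag1, Mecom and Vegfc) and 0 lower. Mecom was at 106 CPM [96.9, 115] in portal-zone, 48.3 in mixed, 8.37 [5.56, 12.1] in central-zone and 281 [244, 322] in large-vessel cells. Sox17, a transcription factor of arterial endothelium, was at 161 against 125 CPM in other sinusoidal cells (1.28 [1.18, 1.40]), and Gja4, a gap junction protein of arteries, at 296 against 354 (0.84 [0.79, 0.89]). Other arterial genes were near their limit of detection, with 3 UMIs of Gja5, 1 of Bmx and 1 of Cxcr4, and endothelin 1 (Edn1) was at 6.55 CPM [4.51, 9.20] against 932 in large-vessel cells. In the list of large-vessel genes 4 of 12 were higher (Cd34, Adgrg6, Plac8 and Ly6a) and 1 lower, and 0 lower without the 7 cells. The summed list was at 3372 CPM in portal-zone, 2946 in other sinusoidal and 13845 in large-vessel cells, but also at 15911 CPM in the cholangiocytes, so it does not mark large vessels alone. Fbln5 and Eln, genes of elastic fibres, were at 1.19 and 0.794 CPM in portal-zone and at 461 and 489 CPM in large-vessel cells. The part of large-vessel RNA in these ratios was not tested.

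Of the scavenger and clearance genes, 2 of 15 were higher and 0 lower. Cd36, a fatty acid and lipoprotein receptor, was at 550 CPM [530, 571] against 319 [309, 329] (1.73-fold), and Cd209b, a C-type lectin, at 20.3 against 13.1 (1.55-fold). Clearance receptors for hyaluronan and glycoproteins were lower by less than 1.5-fold: Stab1 had a ratio of 0.77 [0.75, 0.80], Mrc1 of 0.83 [0.81, 0.86] and Lyve1 of 0.76 [0.72, 0.79]. Stab1 was at 1013 CPM in portal-zone, 1223 in mixed and 1558 in central-zone cells, whereas Lyve1 was highest in mixed cells (622) and at 414 and 373 in portal-zone and central-zone cells. Of 17 measured transcription factors of sinusoidal cells, 1 was higher (Mecom) and 1 lower (Irf8, 0.64 [0.57, 0.72], and 0.67 without the 7 cells, when it no longer passed).

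Growth factor pathways differed in single members. Of 13 VEGF and angiopoietin genes, 3 were higher: Vegfc, Esm1 and Angpt2, an antagonist ligand of the Tie2 receptor (27.0 CPM [22.7, 32.0] against 14.3 [12.3, 16.4]). One was lower (Plvap, of the diaphragms of vessel pores), and 0 without the 7 cells. Of 13 BMP pathway genes 0 were called in either direction, with the receptor Bmpr2 at 1.25 [1.19, 1.32], the target genes Id1 and Smad6 at 1.29 [1.21, 1.37] and 1.35 [1.26, 1.45], and the ligand Bmp2, which regulates hepatic iron, at 0.82 [0.80, 0.84]. Of 9 TGF-beta and elastic fibre genes besides Ltbp4, 1 was higher (Fbn1, fibrillin 1, 24.0 CPM [19.9, 28.7] against 12.2 [10.4, 14.2]) and 1 lower (Tgfbi). Of 7 Wnt genes besides Wnt2, 0 were higher and 1 was lower (Rspo3). In the basement membrane list 1 of 10 was higher, the laminin chain Lama4 (220 CPM [207, 233] against 133 [127, 140]).

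Chemokine genes were called in both directions, with 3 of 14 higher and 5 lower, beside 1.91% and 2.2% of all genes. The higher ones were Cxcl9 (122 CPM [113, 132] against 66.0 [61.7, 70.5]) and Cxcl10 (374 [358, 392] against 237 [228, 245]), both induced by interferon, and the atypical receptor Ackr1 (57.8 [51.3, 64.8] against 27.6 [24.8, 30.5]). Of the Cxcl10 UMIs, 24.2% were in 3 portal-zone cells and 6.57% in 3 of the others. Without the 7 cells and the 3 cells of each group with most UMIs of the gene, an alternative chosen after seeing the data, the Cxcl10 ratio was 1.34 and no longer past 1.5-fold, and that of Cxcl9 was 1.86. The lower ones were the atypical receptors Ackr2 (0.59 [0.47, 0.74]), Ackr3 (0.11 [0.06, 0.17]) and Ackr4 (0.31 [0.23, 0.40]) and the 2 chemokines Ccl5 and Ccl21a named above. Portal-zone cells therefore held more RNA of 1 atypical chemokine receptor gene and less of the other 3. Of 14 antigen presentation and interferon genes, 2 were higher (Isg15, 1.58-fold [1.43, 1.74], and Ifit1, 1.57-fold [1.37, 1.80]) and 1 lower (Cd74). Without the 7 cells 3 of 13 were higher and 0 lower, as Ifit3 (1.45 [1.28, 1.64]) then had 1.51 [1.33, 1.71]. Of 16 adhesion genes 0 were higher and 1 lower (Jam3, a junction molecule, 0.63 [0.49, 0.80]). Selp, the leukocyte adhesion gene P-selectin, had 0 UMIs in portal-zone cells and 115 in the others. With 3 counts as the limit for a count of 0 over the whole group (0.596 CPM), this is at least 14.3-fold lower than the 8.55 CPM of the others.

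Of 9 vasoregulators 2 were higher, Ednrb and the adenosine receptor gene Adora2a (1.53-fold [1.19, 1.94]), and endothelial nitric oxide synthase (Nos3) was at 65.5 CPM [58.7, 73.0] against 80.3 [75.5, 85.2]. Of 15 immediate early and stress genes and 3 cell cycle genes 0 were called, and of 4 coagulation genes 1 was lower (Anxa2), and 0 without the 7 cells. The most abundant members of many lists differed little: Dnase1l3, a secreted DNA-degrading enzyme, was at 3545 CPM [3493, 3597] against 3915, the shear stress factor Klf2 at 1984 [1946, 2024] against 1947, and the VEGF receptor Kdr at 1932 [1893, 1970] against 2351. The water channel Aqp1 was at 3516 [3465, 3569] against 3812 CPM, the class I molecule H2-D1 at 4035 [3979, 4090] against 3904, and coagulation factor VIII (F8) at 745 [721, 769] against 904. Endoglin (Eng) was at 2049 [2009, 2088] against 2364 CPM, Sparc at 1606 [1571, 1641] against 1629, and Nrp1 at 1710 [1674, 1747] against 1625.

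RNA of other cell types was counted with lists of markers. The macrophage list had 6 of 6 measured genes lower, and 1 of 1 without the 7 cells (C1qb). Its sum was 22.2 CPM in portal-zone, 45.9 in mixed, 101 in central-zone and 5237 in the cells with neither trio, which held 74.6% of these UMIs among the other cells while being 7.36% of them. Lists of mesothelial, stellate, lymphocyte and erythroid genes had 0 members above 20 CPM, with sums of 23.2, 32.2, 5.96 and 0.993 CPM in portal-zone cells. Of 2 measured lymphatic genes both were lower (Ccl21a and Sema3d), and of 1 platelet gene 1 was lower (Pf4). Hepatocyte genes summed to 1670 CPM in portal-zone, 1323 in mixed, 1725 in central-zone and 20200 in the cells with neither trio, with 0 of 7 higher and 1 lower, and 0 lower without the 7 cells. Cholangiocyte genes summed to 821 CPM in portal-zone and 468 in central-zone cells, with 0 of 4 called against all other cells. Against central-zone cells 4 of 4 were higher, beside 3.68% of all genes. The median portal-zone and central-zone cell had 2.52 and 2.51 UMIs of this list per 10000, and the 99th percentiles were 90.7 and 19.4. Genes of portal hepatocytes had 0 of 3 called. Genes of central hepatocytes had 1 of 3 lower, and 0 without the 7 cells, with Glul (glutamine synthetase) at 342 CPM [326, 359] in portal-zone, 269 in mixed and 176 in central-zone cells. Levels of Glul thus went opposite to those of the central-side endothelial genes. What part RNA of other cells had in these ratios was not tested.

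Against the 121 large-vessel cells, 1421 of 7365 genes were higher in portal-zone cells (19.3%) and 896 lower (12.2%). Besides the sinusoidal genes of the rule, Maf (1877 against 178 CPM), Adam23 (1091 against 5.33) and Bmp2 (1182 against 38.6) were far higher in portal-zone cells, and Edn1, Rspo3 (1.79 against 1231) and Ly6a (471 against 1904) far lower. Ntn4 was at 617 CPM in both, with intervals of [595, 639] and [562, 676] that overlapped.

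Within the portal-zone cells, levels of the summed portal-side list and of some genes moved with the sum of the portal trio, as a description since the trio chose the cells. In the 877 cells left, those with a sum of 2 (86 cells, median 1819 UMIs), 3 to 4 (154), 5 to 9 (333) and 10 or more (304, median 6993 UMIs) had the summed portal-side list at 3038, 3452, 3729 and 4434 CPM. The central-side list was at 1348, 1420, 1250 and 1005 CPM, so its first pair of values ran against the order of the rest. Adgrg6 was at 20.9, 15.2, 36.4 and 111 CPM, Ednrb at 16.7, 13.5, 31.0 and 109, and Msr1 at 225, 267, 354 and 514. Other portal-side genes did not rise steadily: Adam23 was at 910, 1239, 1145 and 1147 CPM and Itga9 at 380, 452, 456 and 437. Chst2 was at 200, 257, 194 and 206 CPM and Btnl9 at 230, 182, 178 and 198. Depth was larger at larger sums in these cells and cannot be told apart from it.

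Cells that passed through Efnb2 and Dll4 alone (20 cells, no Ltbp4 UMI) were set beside cells that passed through Ltbp4 alone (186 cells). Of 7493 genes, 212 (2.83%) were higher and 104 (1.39%) lower in the former, whose 76190 UMIs give wide intervals. The 3 deepest cells were left out of both groups. Lyve1 was higher, at 866 against 413 CPM (2.10-fold [1.58, 2.74]). Efnb1 was lower (0.62 [0.38, 0.96]), as were Cxcl10 (0.38 [0.17, 0.73]) and Ly6a (0.31 [0.15, 0.58]). Msr1 had 14 and 230 UMIs (0.60 [0.32, 1.02]) and Ntn4 31 and 375 (0.81 [0.54, 1.17]), intervals that hold 1.

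Clustering of the 880 cells without the rule genes gave 6 clusters, which are given by their leading genes as a description only. The first (265 cells) included the 3 cells named above. Leading genes and levels of clusters were computed without these 3 cells, and the first cluster then had no leading gene above 1.79-fold. The next (259 cells, median 2586 UMIs, 9.35% mitochondrial) was led by Hist1h4d and Gm26917, and the third (214 cells) had Socs3, Zfp36, Fos and Fosb, genes of the immediate early response, among its leading genes. A cluster of 114 cells (13.0%) was led by Ednrb (320 CPM), Plac8, Adgrg6 (235 CPM), Cnmd, Tspan13, Flrt2, Jag1, Vegfc, Ly6a (1479 CPM) and Ifit3. It had the portal-side list at 4913 CPM, the central-side list at 784 and Lyve1 at 141 CPM, against 387, 556 and 610 CPM of Lyve1 in the 3 larger clusters. Of the 15 genes with the highest ratios above, 5 were thus among the 10 leading genes of a cluster with 13.0% of the cells, while Msr1, Ntn4 and Efnb1 were at no less than 341, 498 and 420 CPM in any of the 4 larger clusters. The remaining 17 and 11 cells had 15400 CPM of hepatocyte and 17138 CPM of cholangiocyte list genes, the latter with a median of 14524 UMIs.

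**Figure D4:**
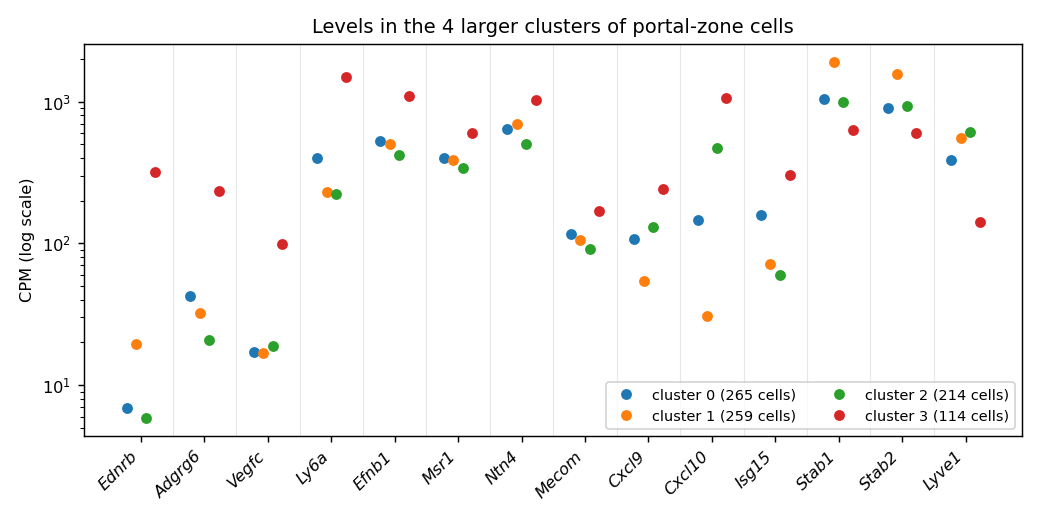
Level of 14 genes (y axis, CPM, log scale, 1 point for each cluster and no error bar) in the 4 larger clusters of portal-zone cells. The 3 deepest cells fell in the first cluster and were left out of its levels. The cluster of 114 cells is highest for the genes from Ednrb to Isg15, by far for Ednrb at 320 CPM, and lowest for Stab1, Stab2 and Lyve1.

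The same gates were applied to the CCl4 library, which played no part in ranking the 15 highest and 15 lowest genes. There 710 sinusoidal cells passed and 198 were portal-zone cells, 27.9% [24.6, 31.3], with a median of 7151.5 UMIs. Mesenchymal RNA was frequent in these cells: 31 of 198 portal-zone (15.7%) and 138 of 512 other sinusoidal cells (27.0%) had at least 10 UMIs of the matrix gene Dcn, against 1 of the 880 healthy cells, and the summed stellate list was at 7108 and 11040 CPM. The comparison was therefore also made in the 167 and 374 cells under 10 Dcn UMIs, a limit set after seeing the data. Between these groups the ratios of Dcn and Lrat were 1.15 [0.97, 1.37] and 1.03 [0.32, 2.85]. Col1a1 was still at 267 against 109 CPM (2.46 [2.09, 2.89]), Alb at 31.4 against 68.4 CPM (0.46 [0.31, 0.66]), and Spp1 had 1 and 121 UMIs. The part of RNA of other cells that remained was not tested. Of the 15 genes highest in the healthy library, 12 were measured there and 11 were higher and 0 lower, beside 3.18% and 3.65% of 6582 genes. Of the 15 lowest, 10 were measured and all 10 were lower. Adgrg6 had a ratio of 7.40 [4.61, 12.3], Slc45a4 of 7.84 [4.32, 15.1], Mecom of 4.27 [3.18, 5.77] and Msr1 of 2.16 [1.91, 2.44]. Rspo3 had 0.0941 [0.0340, 0.210] and Cdh13 0.04999 [0.0161, 0.118]. Ednrb was the exception, at 318 against 308 CPM, a ratio of 1.03 [0.91, 1.17].

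With all 198 and 512 cells, 7 of 13 measured genes among the highest were higher and 0 lower, beside 2.79% and 5.07% of 6848 genes, and 9 of 9 among the lowest were lower. Against the 120 central-zone cells of that library, 12 of 13 of the highest were higher (8.57% of all genes) and 8 of 11 of the lowest were lower (4.9%). Of the lowest, Rspo3 was not called, at 114 against 83.4 CPM (1.36 [1.05, 1.78]), nor was Jup (0.79 [0.57, 1.11]), and Tgfbi was higher (4.41-fold [3.52, 5.58]). Mesenchymal RNA differed the same way: 5.83% of the central-zone cells had at least 10 Dcn UMIs and their stellate list was at 1963 CPM, against 15.7% and 7108 CPM in portal-zone cells, a Dcn ratio of 4.49 [4.12, 4.90]. Its part in this comparison was not tested. The portal-side and central-side lists were chosen with earlier results of these data known. The portal-side list had 7 of 10 higher with all cells and 6 of 9 under 10 Dcn UMIs, and the central-side list 7 of 9 and 7 of 8 lower. Since the same trios set the groups in both libraries, this shows which other genes went with them in a second library and is no replicate of the healthy one. Injury, library and software version cannot be told apart between the libraries.

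**Figure D5:**
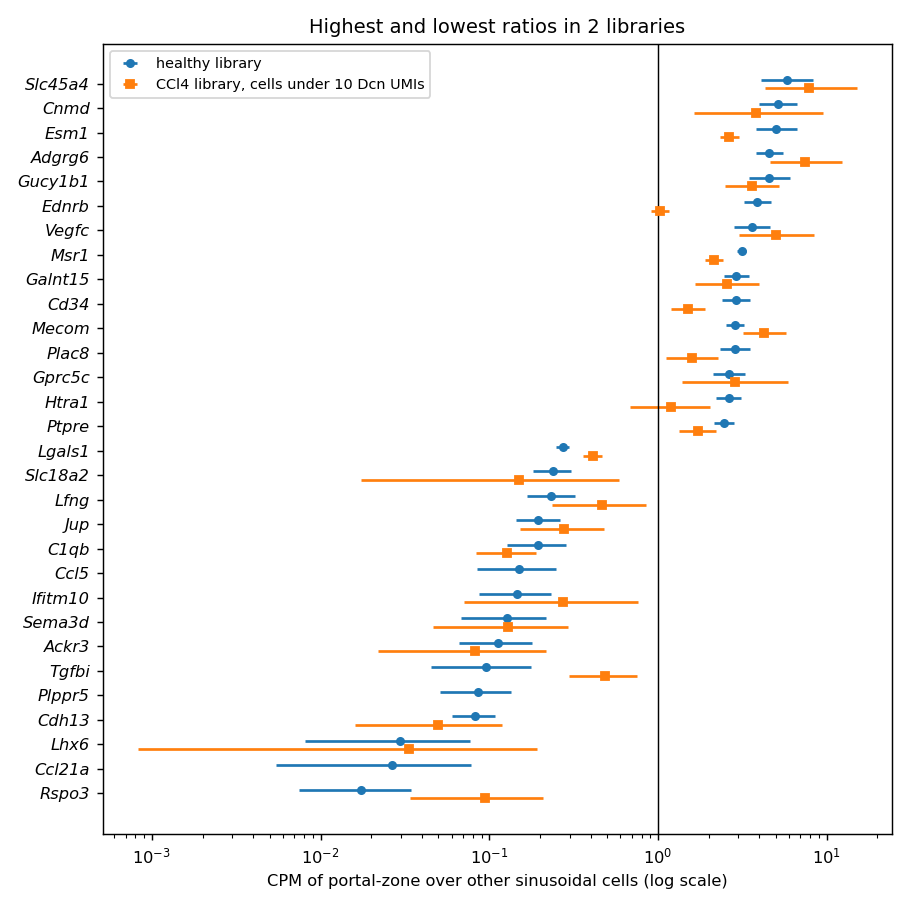
Ratio of CPM of portal-zone over other sinusoidal cells (x axis, log scale) for the 15 highest and 15 lowest genes without the 7 cells in the healthy library (circles) and for the same genes in CCl4 cells under 10 Dcn UMIs (squares), with 95% intervals as bars and no square for genes with under 10 UMIs or none in portal-zone cells there. All squares drawn lie on the same side of 1 as the circles, with Ednrb at 1.03 and Htra1 at 1.20 the closest to 1 and with intervals across it.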

How the data were processed

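Per the labels and the study's methods, cells were captured with the 10x Genomics 3' version 2 protocol, and the deposited files of each library hold raw UMI counts by gene and barcode, as the authors' software wrote them, with no normalization. The genome build is not given in the files. The submitters' processing notes list a human and a mouse build, and the gene identifiers are from mouse, so no coordinates of these data are used. The healthy matrix held 31053 genes and the CCl4 matrix 32285, from different software versions. Cells called by the authors had at least 500 UMIs.

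The members of the group, the gene lists and the alternatives were chosen with earlier results of these data known. UMIs were summed over each group of cells and divided by the group's total (CPM), with exact Poisson intervals, exact conditional binomial intervals for ratios and Clopper-Pearson intervals for shares. A gene was measured when it had at least 20 CPM in the higher group. The named genes were the 15 highest and 15 lowest ratios without the rule, mitochondrial and ribosomal protein genes, and from each of 31 lists the members past 1.5-fold, at most 4 in each direction, with its most abundant member, and other genes in the text were chosen after their values were seen. Intervals ignore variation between cells and mice, and free RNA in droplets was not removed. Doublets were kept in the reported values, and an alternative removed the 317 cells with the highest Scrublet scores. Other alternatives changed the portal, central and Vwf gates, the UMI and mitochondrial limits, the reference cells, the scaling, the CPM filter and the fold. Clusters came from Leiden clustering (scanpy 1.11.5) at the settings of a single run, with the rule and mitochondrial genes left out. Upstream sequences came from a RefSeq table of GRCm38.p6. The scripts recovered known ratios in simulated Poisson counts, which held no variation between cells. Python 3.11.15, scipy 1.17.1 and, for TMM factors, edgeR 4.0.16 in R 4.3.3 were used.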

Additional observations from a re-analysis of the deposited data

Results flagged for a closer look

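For 2 of the 15 genes with the highest ratio in the healthy library, the ratio of portal-zone over other sinusoidal cells lay below 1 in the CCl4 library and above 1 in the healthy one, with intervals apart. Ednrb had a ratio of 3.89 [3.26, 4.66] in the healthy library and of 0.720 [0.659, 0.786] in the CCl4 library, and Plac8 had 2.87 [2.33, 3.53] and 0.757 [0.679, 0.842]. With 1 library in each condition the difference was not tested. In CCl4 cells under 10 Dcn UMIs the ratios were 1.03 [0.91, 1.17] for Ednrb and 1.5998 [1.11, 2.29] for Plac8, and mesenchymal RNA, with 15.7% of portal-zone and 27.0% of other CCl4 cells at 10 or more Dcn UMIs, moved with the groups.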

How the results depend on the processing

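No paired analysis was possible because each condition had 1 library. The number and share of portal-zone cells (880 and 28.8%) depended on the gates: the share was 26.0% with a portal sum of at least 3, 489 cells and 16.0% with a central sum of 0, 479 cells and 15.7% with Efnb2 and Dll4 alone as the portal genes, and 537 cells and 17.6% with gates per 10000 UMIs. Genes higher and lower (134 and 154) numbered 202 higher with Efnb2 and Dll4 alone, 74 higher with a mean of per-cell CPM, 262 and 294 against central-zone cells, 1193 and 972 against the cells with neither trio, 80 and 71 at 50 CPM, 394 and 501 without a CPM filter, 52 and 50 at 2-fold, and 69 higher without the 7 cells, an alternative chosen after seeing the data. The portal-side count (4) was 8 against central-zone cells and 2 at 2-fold, and the central-side count (7) was 2 against the cells with neither trio. The share of portal-zone cells with a Msr1 UMI (58.4%) was 65.7% unthinned and 38.8% at 1500 UMIs. Over 49 named genes and 14 alternatives, 508 of 677 ratios stayed within their main interval, 145 moved and 24 changed direction, for 15 genes. With gates per 10000 UMIs these were Sox2 (0), Gm10036 (0.0426), Snrpn (0.0786), Gm11361 (0.0501), Tubb3 (0.0187), Tubb2b (0.0561), Hmgn3 (0.275), Tpm2 (0.223), Basp1 (0.122), Pfn2 (0.0936), Nt5dc2 (0.525), Tuba1c (0.303) and Hmgb3 (0.524), and without the 7 cells Sox2 (0), Gm10036 (0.641), Gm11361 (0.903), Tubb3 (0.347), Tubb2b (0.817), Basp1 (0.741), Pfn2 (0.783), Tuba1c (0.987) and Hmgb3 (0.967), where the 3 deepest cells had left the portal-zone group. Ccl5 turned to 5.31 against central-zone cells, which had 2 Ccl5 UMIs, while all 16 portal-zone UMIs were in 1 cell. Sema3d turned to 1.22 against the cells with neither trio, with 14 UMIs against 1, and the cause was not tested. Depth limits what is known of genes under 20 CPM.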
